A study of Homo sapiens with 45 samples.

Results

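The comparison described here set HEY cells given a precursor of the microRNA miR-203a against HEY cells given a negative-control precursor, written miR-NC. Its members were chosen by the array titles, which name 3 arrays in each of these groups, 6 of the 45 arrays in the series. HEY is an established human ovarian cancer cell line. Both groups were transfected at 33 nM with a lipid reagent and grown for 48 h before total RNA was taken, so the control cells also carry the lipid and an introduced small RNA. The rest of the series treats HEY, a second ovarian line (SKOV3) and a prostate cancer line (PC3) in the same way with 1 of 4 precursors (both of these, miR-205 or miR-429), or leaves them untransfected, with 3 arrays in each of 15 groups, and asks how cancer cells of different origin differ in how microRNAs move them from mesenchymal towards epithelial traits. A transfected precursor raises a microRNA for a short time in most cells of a dish, and the level of mature miR-203a that it reached was not analysed here. Nothing in the labels tells whether replicate arrays stem from different dishes, and every p-value measures only the spread between these arrays, which may be technical.

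A microRNA is loaded into an Argonaute protein and pairs, mainly through its seed near the 5′ end, with sites in messenger RNAs, which lowers their level or their translation. Many changes seen days after a transfection lie further downstream, in genes that respond to the direct targets. miR-203a is best known from the epidermis, where it helps basal cells leave the cell cycle and differentiate, and its reported targets include the signalling inhibitor SOCS3 and the actin-binding protein LASP1.

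The mature microRNAs are shown because the seed is what tells the introduced precursors apart. The labels name the precursor and not the arm, so both arms of miR-203a are printed, from RefSeq on GRCh38.p14, 5′ to 3′, with the seed (bases 2 to 8) in capitals. The 3p arm lies on chromosome 14 at chr14:104117469-104117490 on the plus strand. The 2 other precursors used in HEY cells, miR-205 and miR-429, are encoded on chromosome 1 and are shown because they were compared with the same control arrays.
hsa-miR-203a-3p: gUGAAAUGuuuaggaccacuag
hsa-miR-203a-5p: aGUGGUUCuuaacaguucaacaguu
hsa-miR-205-5p: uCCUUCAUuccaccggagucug
hsa-miR-429: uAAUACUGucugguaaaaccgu
No seed was shared among these 4 sequences.

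The values are log2 intensities after RMA, and 1 log2 unit is a 2-fold change. The arrays carried 54675 probe sets, and each of the 15599 genes tested was represented by its brightest probe set. A gene was called when its adjusted p from limma, fitted to all 45 arrays and adjusted by Benjamini-Hochberg over these genes, was below 0.05. Every adjusted p below comes from that fit, and every difference is miR-203a minus miR-NC in log2 units unless another is named. Each SE likewise rests on the spread within all 15 groups, and not on the 6 compared arrays alone. The median of all values, 4.89, served as a guide to background, since a change that ends near it is understated. Across probe sets, arrays of 1 group correlated at 0.992 to 0.993 and arrays of the 2 groups at 0.986 to 0.987.

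The control probe sets and the marker genes were compared before the results. At the 3′ end the control transcripts matched, with a difference of 0.067 (SE 0.12) for GAPDH and 0.019 (SE 0.105) for ACTB. The ACTB 3′ probe set measured 13.7 in both groups, close to the highest control values in the series, where a difference may not show. At the 5′ end the miR-203a arrays were brighter on average, by 0.58 (SE 0.36) for GAPDH, whose arrays overlapped, and by 0.75 (SE 0.27) for ACTB. The middle probe sets differed by 0.38 (SE 0.28) for GAPDH and by 0.64 (SE 0.25) for ACTB. The ACTB 5′ probe set measured 6.37, 6.07 and 6.29 in the control arrays and 7.08, 7.06 and 6.85 in the miR-203a arrays, with no overlap, and the same difference in SKOV3 was close to 0. In SKOV3 that probe set measured 13.7 in both groups, again where a difference may not show. A higher ratio of 5′ to 3′ signal is usually read as longer labelled RNA, and its part in the results below was not tested. The 23 ribosomal protein genes tested had a median difference of 0.017, against 0.015 for all genes. Of the genes listed as marks of line identity, PAX8 measured 10.4 in both HEY groups and WT1 10.3 and 10.2, while MSLN, another ovarian marker, measured 3.80 and 3.68, below 4.89. WT1 did not set ovarian lines apart, with 5.05 in SKOV3 and 9.61 in PC3 control arrays, whereas PAX8 measured 10.7 in SKOV3 and 6.00 in PC3. The blood cell markers summed to 33.9 to 34.8 over 8 genes in the control arrays and to 32.7 to 33.6 in the miR-203a arrays, with 7 and 8 of the 8 genes at or below 4.89.

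miR-203a changed 2052 of 15599 genes (13.2%) in HEY cells. Of these, 908 (5.82%) were higher and 1144 (7.33%) lower. Changes of at least 2-fold were mostly falls: 294 of the 384 genes changed at least 2-fold were lower and 90 were higher. Genes for inflammatory cytokines and for the interferon response were among the falls, and genes of cholesterol synthesis were among the rises. In 1995 of the 2052 called genes the 3 arrays of 1 group did not overlap those of the other. The calls were made on these same arrays, so this count adds no support to them. The share without overlap over all genes was not counted. For 120 of the 294 falls of at least 2-fold and for 34 of the 90 such rises, 1 group mean lay at or below 4.89.

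**Figure D1:**
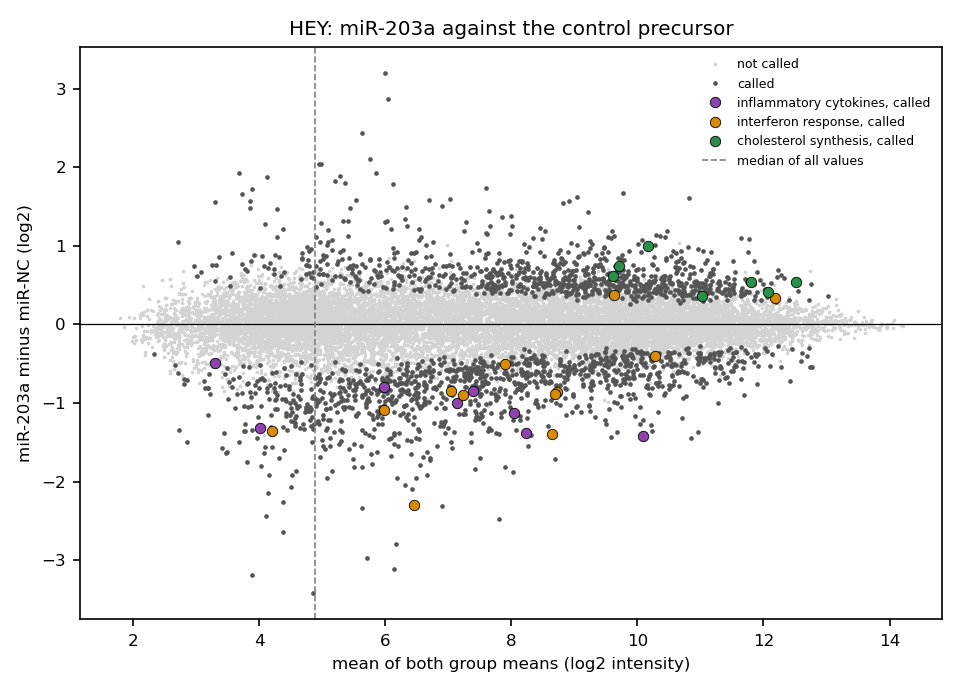
Each point is 1 of 15599 genes, with the mean of the miR-203a and control group means (log2 intensity) on the horizontal axis and the difference miR-203a minus miR-NC (log2) on the vertical axis. Dark points are the 2052 called genes, coloured points are the called members of 3 gene lists, and the dashed line is the median of all values. The called cytokine genes lie below 0 and the called cholesterol synthesis genes above it.

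Of 32 inflammatory cytokine genes tested, 8 fell, a share to be read against the 7.33% of all genes that fell, and 0 rose. At an unadjusted limma p below 0.05 the list had 13 lower members and 1 higher. The share of all genes at that limit was not counted, and the 7.33% does not apply to it. Its median difference was -0.39, against 0.015 for all genes. The list held 38 genes, of which 36 had a probe set, and 19 of the 32 tested had a HEY group mean above 4.89. These genes encode secreted proteins that call in and activate immune cells, and many of them are classical targets of the transcription factor NF-kB.

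The CXC chemokines that attract neutrophils lie side by side on chromosome 4. CXCL1 measured 10.83, 11.01 and 10.55 in the control arrays and 9.45, 9.33 and 9.35 in the miR-203a arrays. Every miR-203a array lay below every control array, a fall of 2.68-fold (difference -1.42, SE 0.16, adjusted p = 8.64e-08). CXCL8, which encodes interleukin-8, measured 9.05, 9.19 and 8.52 in control arrays and 7.49, 7.58 and 7.55 with miR-203a. The groups were again separate, and CXCL8 fell by 1.38 (SE 0.32, adjusted p = 0.0023). The probe sets of CXCL8 and CXCL5 may bind related transcripts. CXCL3 went from 7.60, 7.66 and 7.66 to 6.50, 6.85 and 6.55, a fall by 1.01 (SE 0.17, adjusted p = 7.66e-05). CXCL5 was near background in both groups, at means of 3.55 and 3.05, and its call (difference -0.50, adjusted p = 0.0126) was lost in 3 of 6 refits that left out 1 array (adjusted p up to 0.123). CXCL2, measured by a probe set that may bind related transcripts, had a difference of -0.99 with no overlap between arrays. Its SE of 0.47, which rests on all 15 groups, left CXCL2 uncalled (adjusted p = 0.178). CXCL6 had a difference of -0.50 (adjusted p = 0.0731).

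Among the interleukins and growth factors, IL1B, a cytokine that starts inflammatory signalling, measured 8.64, 8.55 and 8.62 in control arrays and 7.56, 7.59 and 7.29 with miR-203a. It fell 2.18-fold (difference -1.13, SE 0.15, adjusted p = 6.64e-07), and the second probe set of the gene gave -1.12. IL6, whose product signals through IL6ST and STAT3, went from 7.87, 7.77 and 7.84 to 7.06, 7.0 and 6.87. Its arrays were also separate, and the difference was -0.85 (SE 0.15, adjusted p = 9.38e-05). IL24 stayed below 4.89 in both groups and fell by 1.32 (SE 0.23, adjusted p = 9.31e-05), with 1 of its miR-203a arrays at 4.15 and the others at 2.82 and 3.12. CSF3, the granulocyte growth factor, measured 6.11, 5.81 and 7.22 in control arrays and 5.51, 5.48 and 5.77 with miR-203a. Its call (difference -0.79, SE 0.24, adjusted p = 0.0219) rests on the highest control array, replicate 3, without which the adjusted p was 0.337, and it was also lost without miR-203a replicate 1 or 2. The 24 uncalled cytokine genes ranged from -0.99 for CXCL2 to 0.66 for IL32.

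The NF-kB list, which holds subunits, inhibitors and feedback genes of that pathway, had 4 of 30 members lower (13.3%, beside 7.33% of all genes) and 0 higher. PTGS2, the inducible cyclooxygenase of prostaglandin synthesis, measured 5.44, 5.32 and 5.37 in control arrays and 3.79, 4.08 and 4.29 with miR-203a, a fall by 1.32 (SE 0.16, adjusted p = 1.72e-07) that ends below 4.89. IKBKE, a kinase of the innate immune response, fell by 0.88 (SE 0.19, adjusted p = 0.00139). TNFAIP3, the feedback enzyme A20, fell by 0.68 (SE 0.20, adjusted p = 0.0171) and TNFAIP2 by 0.73 (SE 0.25, adjusted p = 0.0487). The calls of TNFAIP3 and TNFAIP2 were lost in 2 and 5 of the 6 refits without 1 array, so 2 of the 4 calls held in every such refit. The median difference of the list was -0.098, and its 26 uncalled members, which include RELA at 0.32 and NFKBIA at -0.34, ranged from -0.37 to 0.35.

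Receptors and signal carriers for cytokines moved in both directions, with 6 of 40 higher and 6 lower (15% each, beside 5.82% and 7.33% of all genes). LIFR, the receptor of leukaemia inhibitory factor, went from 8.98, 8.98 and 9.08 in control arrays to 7.50, 7.67 and 7.67, with no overlap, and fell by 1.40 (SE 0.15, adjusted p = 2.15e-08). SOCS3, the feedback inhibitor of STAT3 signalling and a published target of miR-203a, measured 10.35, 10.14 and 10.31 in control arrays and 9.25, 9.23 and 9.15 with miR-203a. That is a fall of 2.08-fold (difference -1.05, SE 0.23, adjusted p = 0.00117), but the mean over its probe sets, which include dim ones, was -0.26 and not called (adjusted p = 0.192). STAT3, the transcription factor downstream of IL6, rose from 8.45, 8.51 and 8.53 to 9.84, 10.01 and 9.94 (difference 1.43, SE 0.18, adjusted p = 4.51e-07), although its other probe sets above background gave 0.01 to 1.35. CXCR4, the receptor of the chemokine CXCL12, rose from 8.21, 8.32 and 8.14 to 9.73, 9.92 and 9.89, which is 3.08-fold (difference 1.62, SE 0.15, adjusted p = 1.81e-09). IL1R1, the receptor of IL1B, fell by 1.04 (SE 0.24, adjusted p = 0.00203) with both means below 4.89. Its miR-203a arrays measured 3.67, 2.53 and 3.71. The call was lost without miR-203a replicate 2 (adjusted p = 0.0567) and when only the compared arrays were fitted. Smaller calls were IL6ST at -0.53, SOCS2 at -0.50 and PIAS1 at -0.37 on the lower side, and IL7R at 0.65, IL10RB at 0.53, IL13RA1 at 0.47 and SOCS5 at 0.36 on the higher side.

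Of 65 genes of the interferon response, 10 fell and 2 rose, beside 7.33% and 5.82% of all genes. The median difference was -0.13, and 42 of the 65 were below 0. At an unadjusted limma p below 0.05 the list had 20 lower members and 5 higher, again without a share of all genes. Interferon response genes are switched on when interferon binds its receptor, and many encode proteins that bind viral RNA or block its use. The count of falls varied with the array left out. It was 4 without miR-203a replicate 1, 6 without miR-203a replicate 3, 6 without miR-NC replicate 2 and 7 or 8 in the other refits. Each refit left 2 arrays in 1 group, and falls over all genes then numbered 831 to 923, against 1144. With only the 6 arrays fitted, 22 members of the list and 1738 of all genes were lower.

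The IFIT genes, whose products bind foreign RNA, form a cluster on chromosome 10. IFIT1 measured 7.49, 7.89 and 7.43 in control arrays and 5.41, 5.73 and 4.76 with miR-203a, the largest fall on the list. The arrays did not overlap, and the fall was 4.94-fold (difference -2.30, SE 0.29, adjusted p = 3.39e-07). IFIT3 went from 9.39, 9.39 and 9.26 to 7.83, 8.10 and 7.90, a fall by 1.40 (SE 0.16, adjusted p = 9e-08). IFIT2 went from 9.13, 9.22 and 9.08 to 8.11, 8.27 and 8.38, a fall by 0.89 (SE 0.18, adjusted p = 0.000691). The fourth member tested, IFIT5, had a difference of -0.22 (SE 0.13, adjusted p = 0.298). The calls of IFIT1, IFIT2 and IFIT3 held in all 6 refits without 1 array, as did that of IFI44L, which fell by 1.36 (SE 0.25, adjusted p = 0.000153) and ends below background at a mean of 3.53.

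Other called members are sensors and effectors. OAS1, which makes the messenger that activates RNase L, measured 6.62, 6.23 and 6.69 in control arrays and 5.20, 5.75 and 5.35 with miR-203a (difference -1.08, SE 0.30, adjusted p = 0.0114). Its call was lost without miR-203a replicate 1 or miR-NC replicate 3 (adjusted p up to 0.0656). SAMD9L fell by 0.90 (SE 0.24, adjusted p = 0.00812) and GBP1, a guanylate-binding protein, by 0.85 (SE 0.25, adjusted p = 0.0185), with the call lost in 1 and 3 refits. DDX60 (difference -0.86, adjusted p = 0.0358) and the RNA sensor IFIH1 (difference -0.51, adjusted p = 0.039) lost their calls whichever array was left out, and other bright IFIH1 probe sets gave -0.26 and -0.24, although their 3 control arrays lay above their 3 miR-203a arrays. SP100, at -0.40, lost its call in 5 refits. The 2 rises were small, 0.33 for the RNA-editing enzyme ADAR and 0.37 for NMI, and were lost in 4 and 3 refits. Among the 53 uncalled genes, IFITM1 had a difference of -1.15 (adjusted p = 0.0594), IFI44 of -0.79, MX1 of -0.43 and ISG15 of 0.07, and the highest was OASL at 0.52.

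**Figure D2:**
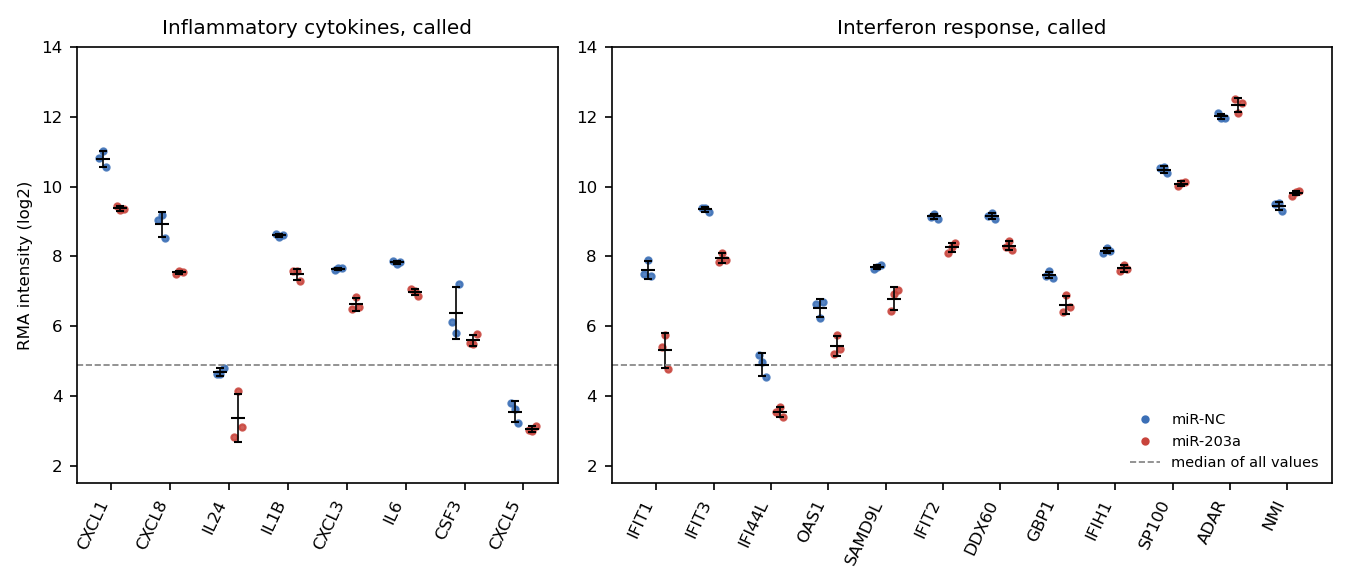
RMA intensity (log2, vertical axis) of every called inflammatory cytokine gene (left) and interferon response gene (right), with 3 control arrays in blue and 3 miR-203a arrays in red. Black bars are means with SD, and the dashed line is the median of all values. In each gene shown except ADAR and NMI the red points lie below the blue ones.

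Genes upstream of that response and in antigen presentation were called about as often as all genes (13.2%), with 3 of 21 interferon ligands, sensors and receptors (14.3%) and 4 of 23 antigen presentation genes (17.4%). The upstream calls were IKBKE and IL10RB, given with the other pathways, and TLR3. TLR3, which senses RNA duplexes in endosomes, fell by 1.16 (SE 0.21, adjusted p = 0.000176), from 7.99, 8.20 and 8.18 to 6.58, 7.20 and 7.11. IFNB1 and IFNL1, the interferon genes that such sensors induce, had differences of -0.25 and -0.30 and were not called. In antigen presentation, PSMB9, a subunit of the immunoproteasome, fell by 0.80 (SE 0.20, adjusted p = 0.00515) and NLRC5, an activator of HLA genes, by 1.05 (SE 0.32, adjusted p = 0.0231, lost in 4 refits). HLA-E rose by 0.44 (SE 0.13, adjusted p = 0.0199) and PDIA3, a chaperone enzyme of the endoplasmic reticulum, by 0.64 (SE 0.16, adjusted p = 0.0059), with the calls lost in 3 and 1 refits and other bright PDIA3 probe sets at 0.05 and 0.23. TAP1 and TAP2, the peptide transporter, had differences of -0.25 and -0.40 and were not called.

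Promoters of these genes were read from RefSeq on GRCh38.p14, from 250 bases before to 50 bases after each start, and 626 of the 818 list genes had an entry. The interferon-stimulated response element (ISRE) was searched as GAAANNGAAA and the NF-kB motif as GGGANTTTCC, on both strands, where a match of either may share bases with a match of the other. An ISRE match was present in 3.65% of 27305 promoters, in 33 of the 55 interferon response genes with an entry (60.0%) and in 7 of the 11 called ones, namely IFI44L, GBP1, NMI, IFIH1, DDX60, IFIT3 and IFIT1. The NF-kB motif was present in 0.579% of all promoters, in 7 of 22 cytokine genes with an entry (31.8%) and in 4 of the 7 called ones, namely CXCL1, CXCL5, CXCL3 and IL6. Interferon response genes with and without a call thus both carried the ISRE letters, and a match describes the letters only.

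The promoters of the IFIT genes with the largest falls and of CXCL1 and IL6 are shown because these genes moved together, with the matched letters in capitals, on the plus strand of GRCh38.p14. IFIT1 is read from chr10:89392373-89392672, IFIT3 from chr10:89327747-89328046, CXCL1 from chr4:73869143-73869442 and IL6 from chr7:22726950-22727249. Counted from the start, the matches begin at -116 and -103 in IFIT1, at -156 and -122 in IFIT3, at -79 in CXCL1 and at -73 in IL6.
IFIT1: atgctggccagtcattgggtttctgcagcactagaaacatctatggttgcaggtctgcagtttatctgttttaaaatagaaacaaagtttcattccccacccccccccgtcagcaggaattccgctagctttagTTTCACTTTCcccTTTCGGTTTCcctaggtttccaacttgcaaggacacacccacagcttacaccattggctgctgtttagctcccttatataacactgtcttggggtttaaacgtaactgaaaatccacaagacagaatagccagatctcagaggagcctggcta
IFIT3: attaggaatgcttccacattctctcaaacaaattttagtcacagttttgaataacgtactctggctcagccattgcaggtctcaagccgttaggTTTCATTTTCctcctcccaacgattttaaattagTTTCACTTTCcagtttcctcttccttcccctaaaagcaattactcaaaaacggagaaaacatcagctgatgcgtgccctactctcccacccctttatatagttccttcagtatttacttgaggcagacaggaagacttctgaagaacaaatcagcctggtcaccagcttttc
CXCL1: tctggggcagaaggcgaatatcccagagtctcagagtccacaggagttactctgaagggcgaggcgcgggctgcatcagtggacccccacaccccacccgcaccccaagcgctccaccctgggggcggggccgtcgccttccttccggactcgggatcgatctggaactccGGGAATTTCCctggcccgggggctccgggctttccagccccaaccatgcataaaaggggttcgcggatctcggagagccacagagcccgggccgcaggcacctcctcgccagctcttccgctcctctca
IL6: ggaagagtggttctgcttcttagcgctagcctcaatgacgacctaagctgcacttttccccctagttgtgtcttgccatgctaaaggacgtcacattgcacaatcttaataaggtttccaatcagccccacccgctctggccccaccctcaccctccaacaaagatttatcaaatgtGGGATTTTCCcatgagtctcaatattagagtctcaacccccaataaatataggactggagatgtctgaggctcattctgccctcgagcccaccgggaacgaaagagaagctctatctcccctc
In both IFIT promoters the 2 capital stretches are the ISRE letters read from the other strand and do not overlap, and in CXCL1 and IL6 the capitals are the NF-kB letters.

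Of 19 cholesterol synthesis genes tested, 7 rose, a share to be read against the 5.82% of all genes that rose, and 0 fell. At an unadjusted limma p below 0.05 the list had 13 higher members and 0 lower. The share of all genes at that limit was not counted, and the 5.82% does not apply to it. The median difference was 0.37, 18 of the 19 were above 0, and the called rises ran from 1.29-fold to 2-fold. Cells make cholesterol from acetyl-CoA through mevalonate, isoprenoids and squalene, and most of these enzymes are switched on together by the transcription factor SREBP2 when membrane sterol is low. All 19 had a group mean above 4.89.

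Along the pathway, ACAT2, which makes the acetoacetyl-CoA used at the entry, measured 9.20, 9.32 and 9.39 in control arrays and 9.93, 9.96 and 9.88 with miR-203a. Its groups were separate, and it rose by 0.62 (SE 0.14, adjusted p = 0.00227), although its only probe set may bind related transcripts. IDI1, the isomerase that opens isoprenoid synthesis, went from 11.46, 11.64 and 11.52 to 12.13, 12.10 and 12 (difference 0.54, SE 0.12, adjusted p = 0.00126). The probe set of IDI1 may bind related transcripts, its other bright probe sets gave -0.39 to 0.56, and its direction was reversed when such probe sets were left out (-0.33, not called). GGPS1, which makes geranylgeranyl diphosphate for protein prenylation, rose by 0.74 (SE 0.16, adjusted p = 0.000961), and its probe set free of such binding gave 0.48, not called. FDPS, which makes farnesyl diphosphate, rose by 0.37 (SE 0.11, adjusted p = 0.0208, lost in 4 refits without 1 array). HMGCS1, the enzyme before the rate-limiting step, had a difference of 0.37 with no overlap between arrays and was not called (adjusted p = 0.181).

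In the sterol part of the pathway, SQLE, which oxidises squalene, measured 11.85, 11.98 and 11.77 in control arrays and 12.42, 12.07 and 12.34 with miR-203a. It rose by 0.41 (SE 0.11, adjusted p = 0.013), its other probe sets gave 0.29 to 1.06, and the call was lost in 3 refits. MSMO1, which removes methyl groups from the sterol ring, had the tightest arrays, 12.21, 12.23 and 12.31 against 12.79, 12.79 and 12.76. That is a rise of 1.45-fold (difference 0.53, SE 0.10, adjusted p = 0.000195), and it held in every refit without 1 array. EBP, a sterol isomerase, rose most, from 9.73, 9.37 and 9.93 to 10.98, 10.55 and 10.49 (difference 1.00, SE 0.24, adjusted p = 0.00352), with its other bright probe sets at 1.25 and 1.27. Uncalled members ranged from -0.20 for LBR to 0.48 for DHCR7. The mean 5′ signal of the control transcripts was also higher on the miR-203a arrays (0.75 for ACTB, and 0.58 for GAPDH with overlapping arrays). The part of this signal in these rises was not tested.

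Genes that sense, take up, store and export cholesterol moved in both directions, with 5 of 27 higher and 4 lower (18.5% and 14.8%, beside 5.82% and 7.33% of all genes). ABCA1, which exports cholesterol to lipoproteins, rose from 9.53, 9.48 and 9.51 to 10.58, 10.42 and 10.58, a 2.03-fold rise with no overlap (difference 1.02, SE 0.21, adjusted p = 0.000713). STARD4, a carrier of sterol between membranes, rose by 0.78 (SE 0.15, adjusted p = 0.000285). MBTPS1, the protease that cuts SREBP, rose by 0.63 (SE 0.15, adjusted p = 0.0043), and NPC1, which moves cholesterol out of lysosomes, by 0.55 (SE 0.16, adjusted p = 0.0172, lost in 2 refits). SCARB1, the receptor of high-density lipoprotein, rose by 0.76 (SE 0.23, adjusted p = 0.0219), and this call was lost without miR-203a replicate 1 or miR-NC replicate 2 (adjusted p up to 0.203). On the lower side, INSIG1, which holds SREBP back in the endoplasmic reticulum, measured 11.66, 11.63 and 11.52 in control arrays and 11.21, 11.42 and 11.17 with miR-203a (difference -0.33, SE 0.11, adjusted p = 0.0302, lost in 4 refits). LRP8, a lipoprotein receptor, fell by 0.65 (SE 0.17, adjusted p = 0.00759), SOAT1, which esterifies cholesterol for storage, by 0.49 (SE 0.14, adjusted p = 0.0152), and OSBPL1A by 0.48 (SE 0.13, adjusted p = 0.0112). Other probe sets of LRP8, SOAT1 and INSIG1 gave values up to 0.32, 0.33 and 0.13, above 0, and those of OSBPL1A gave -0.10 and -0.05. With the mean over probe sets all 4 of these falls lost their call, as did the rise of MBTPS1 (0.41). Of 32 fatty acid and triglyceride genes 2 rose and 1 fell (9.38% called, beside 13.2%), namely TECR (1.02) and HACD3 (0.64), which work in fatty acid elongation, and the malic enzyme ME1 (-0.54), while FASN had a difference of 0.35 and was not called.

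**Figure D3:**
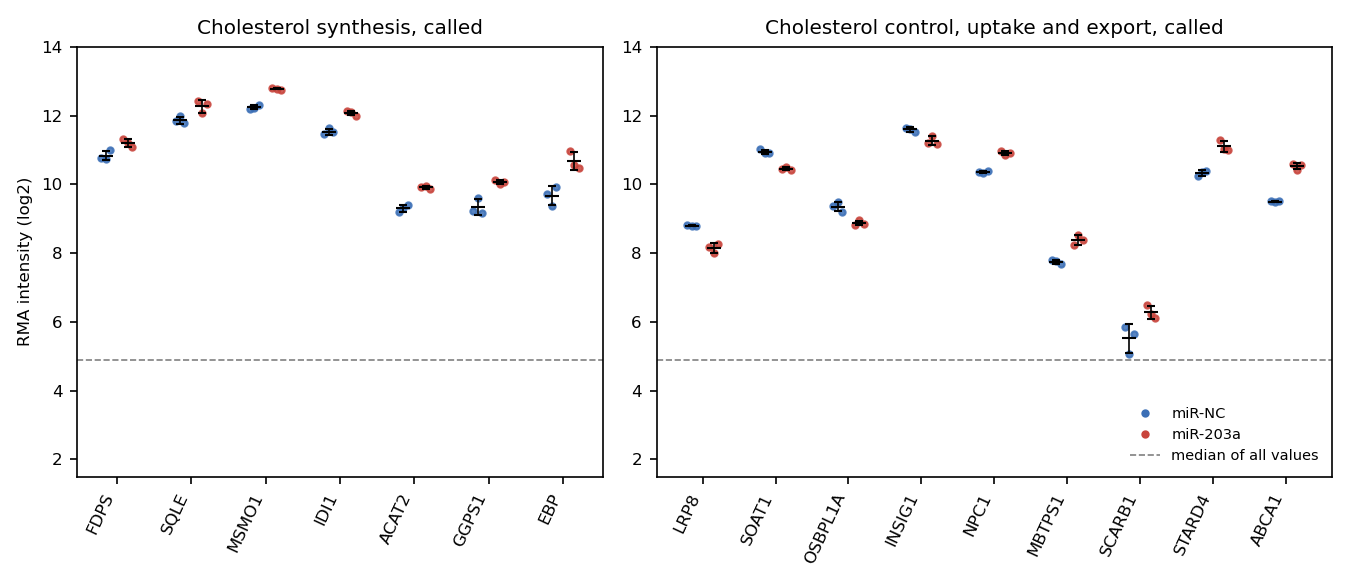
RMA intensity (log2, vertical axis) of every called gene of cholesterol synthesis (left) and of cholesterol control, uptake and export (right), with 3 control arrays in blue and 3 miR-203a arrays in red. Black bars are means with SD. The 7 synthesis genes lie between 9.18 and 12.8, far above the median of all values (dashed), and the red points are above the blue ones in each.

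Published targets of miR-203a gave 8 falls and 1 rise among 29 tested (27.6% and 3.45%, beside 7.33% and 5.82% of all genes), with a median difference of -0.27. LASP1, an actin-binding scaffold, went from 11.80, 11.70 and 11.82 to 10.84, 10.83 and 10.64, a fall of 2.01-fold (difference -1.0, SE 0.13, adjusted p = 3.79e-07). RAPGEF1 fell by 0.95 (SE 0.22, adjusted p = 0.00269), the DNA damage kinase ATM by 0.86 (SE 0.17, adjusted p = 0.000568) and EYA4 by 0.79 (SE 0.14, adjusted p = 6.47e-05). SOCS3, given above, NUAK1 (-0.75), RUNX2 (-0.56) and the cell cycle factor E2F3 (-0.38) also fell. ADAM9 rose by 0.48. SNAI2 (SLUG), an EMT factor and reported target, measured 9.47, 9.58 and 9.44 in control arrays and 8.68, 9.0 and 8.93 with miR-203a, with no overlap, but was not called (difference -0.63, SE 0.27, adjusted p = 0.135). Other bright probe sets gave -0.44 to -0.06 for ATM, -0.37 for EYA4 and -0.82 to 0.19 for RAPGEF1. With the mean over probe sets 5 targets were called lower, and SOCS3, ATM and E2F3 were not called.

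The 15 largest rises included a family of placental glycoproteins. ZBED2, a zinc finger transcription factor, rose most, from 4.33, 4.52 and 4.32 in control arrays to 7.77, 7.51 and 7.50, which is 9.2-fold (difference 3.20, SE 0.25, adjusted p = 1.78e-11). The pregnancy-specific glycoprotein (PSG) genes lie together on chromosome 19 and are near-identical copies. PSG7 went from 4.47, 4.20 and 4.56 to 6.93, 6.77 and 6.84 (difference 2.44, SE 0.18, adjusted p = 9.77e-12). PSG4 rose by 2.10, PSG1 by 1.93, PSG6 by 1.88, PSG2 by 1.57, PSG3 by 1.57 and PSG9 by 0.50, and PSG5 had a difference of 0.28 and was not called. The probe sets of PSG1 to PSG7 carry the suffix for probes shared between transcripts, so which copies rose is uncertain. PSG6 kept only another probe set when these were left out, and that one gave -0.05.

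Among secreted and matrix proteins, BMPER, which binds bone morphogenetic proteins, went from 4.43, 3.46 and 3.98 to 5.84, 6.06 and 6.09 (difference 2.04, SE 0.22, adjusted p = 2.15e-08). EDN1, the vasoconstrictor endothelin, went from 6.63, 6.72 and 6.86 to 8.28, 8.52 and 8.62 (difference 1.74, SE 0.45, adjusted p = 0.00728), with its other probe sets at 0.62 to 0.83. COL8A1, a short-chain collagen, had a difference of 2.04 with no overlap. Its HEY arrays had an SD of 0.095 with miR-203a and of 0.31 in the controls. The SE of 0.69, which rests on all 15 groups, put the call at the threshold (adjusted p = 0.0444). That call was lost whichever array was left out (adjusted p up to 0.142) and under 4 other settings. The integrin subunit gene ITGB8, whose product frees active TGF-beta, rose by 1.83 (SE 0.30, adjusted p = 3.84e-05). Among membrane and vesicle proteins, GPR137B, a lysosomal membrane protein, was far above background in both groups and went from 9.01, 8.96 and 8.85 to 10.46, 10.70 and 10.69. That is a rise by 3.19-fold (difference 1.67, SE 0.14, adjusted p = 1.98e-10). STXBP6, a binder of vesicle fusion proteins, rose by 1.89 (SE 0.23), with its other bright probe set at 1.01. The receptor gene GPR17 rose by 1.79 (SE 0.24). Outside these functions, PHF7 rose by 1.81 (SE 0.16), with its other bright probe set at 0.55. In 11 of the 15 largest rises a group mean lay at or below 4.89.

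ANKRD1, a target of the growth regulator YAP, was the second largest rise. It measured 5.33, 5.19 and 3.31 in control arrays and 7.31, 7.56 and 7.56 with miR-203a, with 1 control array well below the other 2 (difference 2.87, SE 0.29, adjusted p = 7.67e-09). Of 37 YAP and TEAD genes, 4 rose and 2 fell (10.8% and 5.41%, beside 5.82% and 7.33% of all genes), with a median difference of 0.033. IGFBP3 rose from 8.16, 8.14 and 8.08 to 9.45, 9.77 and 9.88 (difference 1.57, SE 0.15, adjusted p = 1.81e-09) and TGFB2, a ligand of the TGF-beta receptors, by 1.19 (SE 0.16, adjusted p = 1.43e-06). FSTL1 rose by 0.92, although its other probe sets gave 0.01 to 0.30. RBMS3 fell by 0.99, but its other bright probe sets ran from -1.17 to 0.95, and both calls were lost with the mean over probe sets (0.41 and -0.43). NF2, an upstream inhibitor of YAP, fell by 0.78. CCN2, a widely used YAP target, had a difference of 0.66 and was not called.

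The 15 largest falls held genes of mixed function. MOBP, a myelin protein gene, fell most, from 6.85, 6.52 and 6.31 to 3.23, 2.97 and 3.23, which is 10.7-fold (difference -3.42, SE 0.31, adjusted p = 8.08e-10). C16orf54, an open reading frame of unsettled function, went from 5.70, 5.44 and 5.28 to 2.32, 2.28 and 2.26 (difference -3.19, SE 0.21, adjusted p = 5.34e-13). EPPK1, which encodes epiplakin, a linker of the keratin cytoskeleton, measured 9.05, 8.91 and 9.18 in control arrays. It fell 5.56-fold to 6.56, 6.59 and 6.57 (difference -2.48, SE 0.18, adjusted p = 8.04e-12), and its second bright probe set gave -2.51. Epithelial differentiation genes also include SCEL, a precursor of the cornified envelope, which went from 7.60, 7.76 and 7.47 to 4.49, 5.64 and 5.78 (difference -2.30, SE 0.32, adjusted p = 2.38e-06).

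Enzymes and signalling genes made up most of the rest. RAPGEF5, an activator of the small GTPase Rap, went from 7.98, 8.0 and 8.17 to 5.87, 5.93 and 5.41 (difference -2.31, SE 0.19, adjusted p = 1.15e-10). VNN1, an ectoenzyme that breaks down pantetheine, went from 7.45, 7.36 and 7.61 to 5.57, 5.31 and 5.27 (difference -2.09, SE 0.24, adjusted p = 7.35e-08). ENDOU, an endoribonuclease, fell by 2.79 (SE 0.20), SDR16C5, a retinol dehydrogenase, by 2.65 (SE 0.26), and PTPN22, a tyrosine phosphatase, by 2.44 (SE 0.32). KCTD4 fell by 2.98 (SE 0.25) and KCNE4, a potassium channel subunit, by 2.27 (SE 0.29). The noncoding RNAs SNTG2-AS1 (-3.11), LINC01410 (-2.34) and LINC01085 (-2.15) also fell, and the strand that their probe sets read was not checked. In 10 of the 15 genes a mean lay at or below 4.89.

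**Figure D4:**
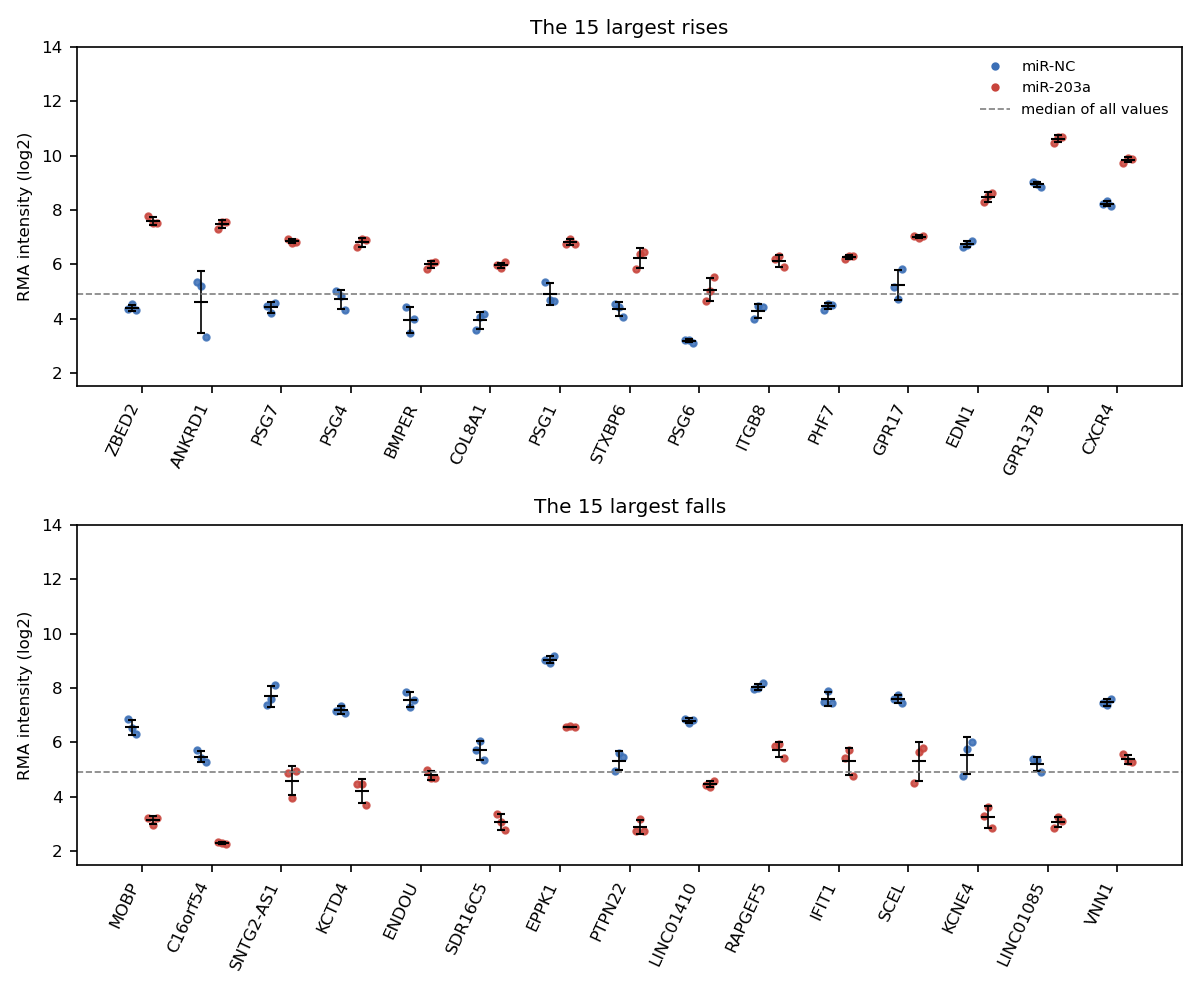
RMA intensity (log2, vertical axis) of the 15 largest rises (top) and the 15 largest falls (bottom) among called genes whose arrays do not overlap, with 3 control arrays in blue and 3 miR-203a arrays in red. Black bars are means with SD, and the dashed line is the median of all values, 4.89. Many genes have 1 group at or below that line, while GPR137B, CXCR4 and EPPK1 are above it in both groups.

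HEY cells given miR-205 or miR-429 were compared with the same 3 miR-NC arrays, so their differences share any error of those controls, and values are given side by side only. For MOBP the difference was -3.67 with miR-205 and -3.38 with miR-429, beside -3.42 with miR-203a. EPPK1 had -3.90 and -3.76, and ENDOU -2.37 and -3.40. ZBED2 had 3.34 with miR-205 and 4.16 with miR-429, beside 3.20. PSG7 had 0.02 and -0.06, beside 2.44, CXCR4 had -0.95 and -0.50, beside 1.62, and BMPER had -0.09 and -0.58, beside 2.04. Of the interferon response genes, IFIT1 had -0.90 with miR-205 and -2.16 with miR-429, beside -2.30 with miR-203a, IFIT3 had -0.84 and -2.99, beside -1.40, and IFIT2 had -2.02 and -2.59, beside -0.89. Both other precursors thus gave values below 0 for these 3 genes.

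The 8 cytokine genes called with miR-203a were mostly below 0 with the other precursors too. With miR-205 the difference was -2.20 for IL6, -1.53 for CXCL8, -1.28 for CXCL3, -1.0 for CXCL1, -0.99 for CXCL5 and -0.91 for IL24, but 0.71 for IL1B and 1.16 for CSF3. With miR-429 it was -1.68 for IL24, -1.25 for CXCL1, -1.07 for IL1B, -0.84 for CXCL3, -0.72 for IL6, -0.59 for CXCL8 and -0.01 for CXCL5, but 0.73 for CSF3. The 7 cholesterol synthesis genes called with miR-203a took both signs. ACAT2 had 2.09 with miR-205 and 1.23 with miR-429, beside 0.62, FDPS had 2.06 and 1.30, beside 0.37, and EBP had 1.95 and 1.74, beside 1.00. SQLE had -2.80 and -1.04, beside 0.41, and MSMO1 had -1.42 and -1.25, beside 0.53. GGPS1 had -0.35 and -0.32, beside 0.74, and IDI1 -0.04 and -0.09, beside 0.54. ACAT2, FDPS and EBP were thus above 0 with each precursor, and the other 4 with miR-203a only among these 3 precursors.

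Of the 16 core EMT genes 3 were called (18.8%, beside 13.2% of all genes). VIM, the mesenchymal filament protein vimentin, measured 11.57, 11.47 and 11.74 in control arrays and 12.26, 12.04 and 12.04 with miR-203a, a rise by 0.52 (SE 0.14, adjusted p = 0.00766), while its other probe set gave -0.12 and the call was lost in 2 refits and with the mean over probe sets. ESRP1, an epithelial splicing factor, fell from 7.57, 7.70 and 7.65 to 6.41, 6.16 and 6.20 (difference -1.38, SE 0.45, adjusted p = 0.0333), and FN1, which encodes fibronectin, fell by 0.70 (SE 0.23, adjusted p = 0.0404). Both falls lost their call in each of 6 refits, with adjusted p reaching 0.0937 and 0.124, although the arrays did not overlap. CDH1, which encodes E-cadherin, was below background in both groups, at means of 2.76 and 3.10 (difference 0.34, SE 0.46, adjusted p = 0.737), as were EPCAM, GRHL2, OVOL1, OVOL2, RAB25 and SNAI1. CDH2, the N-cadherin gene, measured 12.40 and 12.59 (difference 0.19, SE 0.24). Repressors of CDH1 had differences of -0.15 for ZEB1, 0.36 for ZEB2, 0.04 for TWIST1 and 0.52 for TWIST2 (adjusted p = 0.556, 0.0926, 0.925 and 0.0784), and none of these 4 was called.

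Of 42 epithelial genes 6 rose and 3 fell (14.3% and 7.14%, beside 5.82% and 7.33% of all genes), and 20 of the 42 lay at or below 4.89 in each group. GRHL1, a transcription factor of epidermal differentiation, rose from 5.79, 6.14 and 6.07 to 6.83, 7.27 and 7.14 (difference 1.08, SE 0.19, adjusted p = 0.000127). CDS1 rose by 0.75, CLDN1 by 0.61, KRT7 by 0.57, AP1M2 by 0.45 and EHF by 1.05, the last within the background range and not called with the mean over probe sets. The junction genes MARVELD2 (-1.07), PATJ (-0.77) and DSP (-0.38) fell. Of 51 mesenchymal and matrix genes 6 rose and 1 fell (11.8% and 1.96%, beside the same 5.82% and 7.33%). SERPINE2, a protease inhibitor of the matrix, rose from 9.80, 9.91 and 9.92 to 11.10, 11.05 and 11.05 (difference 1.19, SE 0.12, adjusted p = 1.38e-08), FBN1 by 0.97 and COL4A2 by 0.81. LOX, which cross-links collagen, fell from 8.16, 8.16 and 8.01 to 6.48, 6.86 and 6.51 (difference -1.50, SE 0.30, adjusted p = 0.000491). Its second bright probe set gave -0.32, and the mean over probe sets was -0.59 and not called (adjusted p = 0.235). The actin and adhesion list had 6 of 41 members higher (14.6%, beside 5.82%), from 0.48 for MYH9 to 0.80 for RHOB, whose other probe set gave 0.0046.

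Growth and stress genes gave scattered calls. Of 38 immediate early genes 4 fell (10.5%, beside 7.33% of all genes): FOSB went from 6.14, 6.09 and 6.12 to 5.06, 5.12 and 4.69 (difference -1.16, SE 0.20, adjusted p = 5.66e-05), EGR1 fell by 1.00, PHLDA1 by 0.89 and FOSL2 by 0.45. Other bright probe sets ran from -0.27 to 0.70 for PHLDA1 and from -0.23 to 0.42 for FOSL2, and both calls were lost with the mean over probe sets (-0.07 and -0.09). In the cell cycle list 2 of 44 genes rose and 3 fell (11.4% called, beside 13.2%). The cyclin gene CCND1 rose from 10.78, 10.82 and 10.47 to 11.45, 11.58 and 11.51 (difference 0.82, SE 0.18, adjusted p = 0.0011). CDKN1A, the inhibitor p21, rose by 0.45, and CCND2 (-0.79), CDK6 (-0.54) and E2F3 (-0.38) fell, and these 4 calls were lost in 4 or 5 refits. MKI67, a proliferation marker, had a difference of 0.33 and was not called. Of 35 genes that answer unfolded protein or integrated stress 7 rose (20%, beside 5.82% of all genes), among them the chaperones and chaperone cofactors DNAJB9 (0.85), DNAJB1 (0.69), PDIA4 (0.67) and HSPA5 (0.52), while another HSPA5 probe set gave -0.44 and the mean over its probe sets (0.04) was not called. DDIT3 and ATF4, the transcription factors of the stress arm, had differences of -0.41 and 0.37 and were not called. In the TGF-beta and BMP list 4 of 37 rose (10.8%), among them TGFBR3 (0.83) and BMPR2 (0.67), and 6 fell (16.2%), among them ID3 (-0.55), beside 5.82% and 7.33% of all genes. DICER1, which cuts microRNA precursors, rose by 0.52. The endothelial genes CDH5 (1.11, from 9.93, 9.71 and 10.02) and PECAM1 (-1.33) changed in opposite directions, with other bright PECAM1 probe sets at -0.26 and 0.08.

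The response was compared with that of SKOV3 cells, which had control arrays of their own and where 1863 genes (11.9%) were called. Called genes of the same direction numbered 633, which is 30.8% of the HEY list and 34.0% of the SKOV3 list, and 23 were called in opposite directions. The difference between the lines passed the test for 730 genes (4.68%), 253 higher and 477 lower in HEY, and 436 of the 2052 genes called in HEY were among them (21.2%). Of the 15 largest rises 12 and of the 15 largest falls 13 differed between the lines. They were chosen for their HEY difference, which is itself part of the gap, so the choice raised these counts. GAPDH and ACTB 5′ probe sets were far lower in HEY than in SKOV3, at 8.37 against 13.7 for GAPDH in control arrays, so RNA quality and line cannot be told apart here.

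The cytokine and interferon falls were in part larger in HEY. The cytokine list had a median of -0.39 in HEY and -0.094 in SKOV3, and the interferon list -0.13 and 0.058. IL6 had a difference of -0.85 in HEY and 0.14 in SKOV3, and that gap of -0.99 (SE 0.21) passed the test (adjusted p = 0.00289), as did the gaps for IL1B, GBP1, IFI44L and IFIT2. In all, the gap was called lower in HEY for 3 cytokine and 5 interferon response genes. It was called higher for 0 cytokine genes and 1 interferon response gene. The SKOV3 control levels of these genes are not given here, and a gene near background in SKOV3 could not show a fall there. For CXCL1 the SKOV3 difference was -0.96 and for IFIT1 it was -1.43, both called there, and the gaps between lines of -0.46 (SE 0.23) and -0.87 (SE 0.41) did not pass. Cholesterol synthesis had like medians, 0.37 in HEY and 0.41 in SKOV3, where 9 of 19 genes rose. MSMO1 rose by 0.53 and 0.49, with a gap of 0.04 (SE 0.14), whereas SC5D was lower in HEY (0.28 against 0.89, adjusted p = 0.0127 for the gap). INSIG1 fell by 1.70 in SKOV3 and by 0.33 in HEY, and the gap of 1.37 (SE 0.15) passed with adjusted p = 8.34e-08. Published targets had a median of -0.27 in HEY and -0.51 in SKOV3, where 13 of 29 fell, and LASP1 fell less in HEY (-1.0 against -1.66, adjusted p = 0.0246 for the gap).

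**Figure D5:**
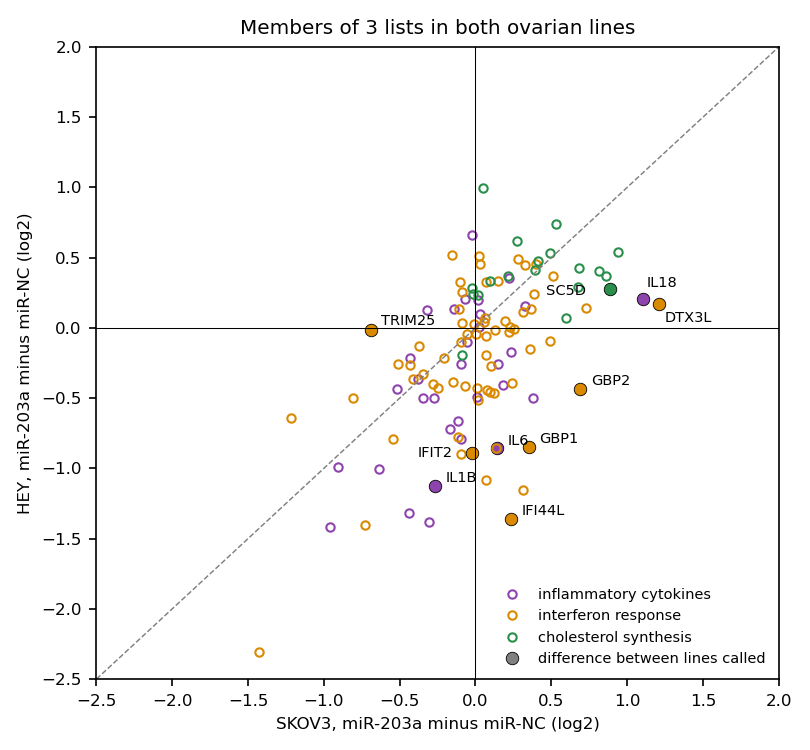
The difference miR-203a minus miR-NC (log2) in SKOV3 (horizontal axis) and in HEY (vertical axis) for tested members of 3 gene lists, 1 point a gene. Filled, named points are genes for which the difference between lines passed the test, and the dashed diagonal marks equal responses. IL6, IL1B, GBP1, IFI44L and IFIT2 lie below the diagonal, and most cholesterol synthesis genes are above 0 on both axes.

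Against PC3 cells the difference in response passed for 5424 genes (34.8%), but the PC3 arrays with miR-203a had control probe sets far above their miR-NC arrays, by 4.95 for GAPDH 5′ and 3.73 for ACTB 5′, and a median difference of 1.78 over ribosomal protein genes. In PC3, IL6 had a difference of 0.99 and CXCL1 of -0.03, beside -0.85 and -1.42 in HEY. The part of the control probe sets in the PC3 values was not tested, and nothing more is drawn from them.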

How the data were processed

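Deposited values are log2 intensities of an Affymetrix array that the authors made with RMA, which corrects background, normalizes and summarises probes, per the submitters' processing notes; its version is not given in the sources used here. Per the labels, total RNA was amplified with a 3′ amplification kit and labelled with biotin. No detection calls were used. The platform annotation gives 1 symbol to 41097 of 54675 probe sets, several to 1801 and none to 11777, and those with 1 symbol were kept where at least 1 of 15 group means was above 4.89, the median of all values. The brightest probe set on average then stood for each gene, which gave 15599 genes. Of 818 genes on 25 lists, 64 were without such a probe set and were not analysed here.

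One fit of 15 group means over 45 arrays was made with limma 3.58.1 in R 4.3.3 (lmFit, eBayes, 30 residual and 5.24 prior degrees of freedom), two-sided, adjusted by Benjamini-Hochberg, with a threshold of 0.05. It includes arrays labelled untransfected whose line markers go against their labels, and a fit of the 36 transfected arrays was an alternative. The gap between lines is a contrast of both responses in that fit. Numbers shared by replicates did not pair the arrays. Genes named are the 15 largest rises and falls without overlap, called members of the cytokine, interferon and cholesterol lists, the core EMT genes, up to 5 called members of each other list, and the 5 largest gaps to SKOV3 in each direction; other members named as uncalled, and further called members of the other lists, were chosen after their values were seen. The members and lists were chosen with earlier results of these data known. Data were simulated for 15599 genes with the spread of each gene pooled within all 15 groups. Of 100 changes of 1 log2 unit 83% were recovered, and of 100 changes of 0.5 22% were. Of 15399 unchanged genes 6 were called. Far fewer genes were changed there than the 2052 called in the data. A stricter adjusted threshold followed, so these shares do not carry over directly. Python 3.11.15, numpy 2.4.6, pandas 2.3.3 and matplotlib 3.10.9 were used. The number of arrays limits the precision. Alternatives were other sets of arrays, the replicate number as a block, other normalizations, filters, probe set rules and priors, and each array left out in turn.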

Additional observations from a re-analysis of the deposited data

Results flagged for a closer look

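The response to miR-203a differed between HEY and SKOV3, by limma's test of the gap itself (HEY minus SKOV3, log2), for these named genes. Among the cytokines the gap was -0.86 for IL1B and -0.99 for IL6, and among the interferon response genes -1.20 for GBP1, -1.60 for IFI44L and -0.87 for IFIT2. For INSIG1 it was 1.37, since the fall was larger in SKOV3. Among the largest rises the gap was 3.42 for ZBED2, 2.09 for ANKRD1, 2.41 for PSG7, 2.21 for BMPER and 2.39 for STXBP6. Among the largest falls it was -3.36 for MOBP, -3.14 for C16orf54, -3.16 for SNTG2-AS1, -2.71 for ENDOU and -2.84 for SDR16C5. In SKOV3 these 10 genes, chosen for the size of the gap, had differences between -0.51 and 0.77, and none was called there. Their SKOV3 control levels are not given here, and a gene near background in SKOV3 could not show a fall there. Between the 2 HEY groups the 5′ control signal differed without overlap for ACTB, while the arrays overlapped for GAPDH. In SKOV3 the 5′ probe sets measured 13.7 in both groups, close to the highest control values, where a difference may not show. The part of the 5′ control signal in these gaps was not tested.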

How the results depend on the processing

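Fitting only the arrays compared, with fewer residual degrees of freedom and a spread estimated from them alone, gave 3263 genes called in HEY (1525 higher, 1738 lower) and 1712 for the gap to SKOV3 (707 higher, 1005 lower in HEY), with 14 cytokine and 22 interferon response genes lower and 12 cholesterol synthesis genes higher. The 36 transfected arrays gave 1197 for the gap (425 higher, 772 lower). Without probe sets that may cross-hybridise, 6 cytokine genes were lower, beside 1045 of all genes. In that setting 4 cholesterol synthesis genes were higher, beside 701 of all genes. The mean of probe sets left 5 published targets lower. The direction was reversed, without a call, for PSG6 (-0.05), IDI1 (-0.33), TAGLN (-0.037) and AGO1 (0.16) without cross-hybridising probe sets and for SMAD6 (0.032) with the filter on HEY groups, where another probe set then stands for the gene. Subtracting array medians gave 995 higher and 1044 lower. Leaving out 1 array gave 1479 to 1603 called genes (629 to 700 higher, 831 to 923 lower), 376 to 406 of at least 2-fold, 498 to 624 for the gap to SKOV3 (174 to 206 higher, 306 to 432 lower), 4687 to 5451 for PC3 (1670 to 2084 higher, 3017 to 3367 lower), 6 to 8 cytokine, 4 to 8 interferon response, 5 to 6 cholesterol synthesis and 7 to 8 target genes. Of 135 called genes that were named, 69 kept their call under all settings and 50 lost it in at least 1 refit without an array.

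Replicate numbers did not pair the arrays: same-numbered arrays correlated in their deviations at 0.038, 0.068 and -0.049. With the number as a replicate block, 2059 genes were called in HEY, 742 for the gap to SKOV3 and 5423 for PC3, and the 6 arrays alone with the block gave 2038.

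Low signal limits the falls that end near 4.89. Changes of 0.5 log2 units were mostly missed in simulated data, where far fewer genes changed than were called here.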
